A study of Homo sapiens with 12 samples.

Results

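The strands of the miR-7 hairpins are described here in K562, a human erythroleukaemia line that grows in suspension. They are hsa-miR-7-5p (miR-7-5p), the guide strand, and hsa-miR-7-1-3p (miR-7-1-3p), the passenger strand from the opposite arm of the MIR7-1 hairpin. They were picked by name, as the 2 miR-7 rows found in each of the deposited tables, which list 952 microRNAs in all and 753 in common. Small RNA was sequenced from 4 groups of 3 libraries, which the depositors call biological triplicates. In the first comparison, K562 cells given a guide RNA directed at CYRANO, a long non-coding RNA, form the sgCYRANO group. Cells given the guide labelled sgNT are the control. The 20 bases of that guide had an exact match in transcripts of 0 genes of the GENCODE annotation, and other genomic sequence was not searched. In the second comparison, ZSWIM8-/- cells (ZSWIM8 KO) were set against wild type cells (WT), and neither of these groups received a guide. The labels do not say whether a group is a clone or a pool, and small-RNA tables do not show whether CYRANO or ZSWIM8 RNA was lost.

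A microRNA hairpin is cut into a short duplex, of which mostly 1 strand, the guide, is loaded into an Argonaute protein, while the other, the passenger, is usually degraded. The guide finds target RNAs chiefly through its seed, bases 2 to 8, and such targets are as a rule repressed while the microRNA persists. In target-directed microRNA decay the roles turn: a target that pairs with the seed and also with the 3′ part of the microRNA brings about destruction of the microRNA. ZSWIM8 is the part of a Cullin-RING ubiquitin ligase that recognises its substrate, and the ligase acts on the Argonaute in this process. CYRANO, annotated as OIP5-AS1, is the known trigger for miR-7, a deeply conserved microRNA abundant in neural and neuroendocrine cells.

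The sequences on which the comparison rests are these. The first is the guide strand with its seed in capitals, the second the site in the OIP5-AS1 transcript with capitals for the bases that pair with its seed and with its 3′ part, and the third the guide RNA of the sgCYRANO cells with capitals for the bases opposite the seed match.
miR-7-5p: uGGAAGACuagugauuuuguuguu
CYRANO site: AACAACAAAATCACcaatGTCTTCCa
sgCYRANO guide: catctcaaaatGGAAGACat
The site lies at chr15:41300574-41300599 of GRCh38 on the + strand, in exon 4 of the GENCODE transcript of 8829 bases. Its stretch GTCTTCC is the match to the seed, and a further 14 unbroken Watson-Crick pairs join it to bases 11 to 24 of the guide strand. Between these stretches 2 bases of the microRNA and 4 of the transcript face each other unpaired. The seed match GTCTTCC, searched in the sense of the transcript, occurs 3 times in this transcript and at least 1 time in transcripts of 9237 of 57133 gene names, or 16.2%. A seed match followed, at a like spacing, by 14 unbroken pairs was found in 2 of them, OIP5-AS1 and MIR3529, whose annotation runs antisense to the MIR7-2 hairpin and therefore holds the complement of miR-7-5p.

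The guide RNA of the sgCYRANO cells matched chr15:41300590-41300609 on the - strand and shared 10 bases with the site. The adjoining bases on its strand read TGG. A nuclease that cuts 3 bases from such a motif, as SpCas9 does, would cut between transcript positions 2887 and 2888, and the seed match runs from 2887 to 2893. The nuclease is not named in the labels used here. Since the guide is antisense to the site, it carries the first 8 bases of miR-7-5p, which is also its longest stretch in common with that strand of 24 bases.

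The guide strand can come from 3 hairpins, while the measured passenger comes from 1. The hairpins MIR7-2 and MIR7-3 are shown with miR-7-5p in capitals, and the passenger strands of MIR7-1 and MIR7-2 with their seeds in capitals.
MIR7-2: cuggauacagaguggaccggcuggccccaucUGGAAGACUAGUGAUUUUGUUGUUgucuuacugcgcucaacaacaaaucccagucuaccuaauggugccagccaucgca
MIR7-3: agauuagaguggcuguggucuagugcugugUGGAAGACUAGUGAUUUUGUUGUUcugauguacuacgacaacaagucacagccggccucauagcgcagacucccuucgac
miR-7-1-3p: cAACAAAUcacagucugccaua
miR-7-2-3p: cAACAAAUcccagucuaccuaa
Sequences are from RefSeq on GRCh38.p14. The copy MIR7-1 lies at chr9:83969748-83969857 on the - strand inside HNRNPK, which encodes an abundant RNA-binding protein, and sits in an intron of 4 of its protein-coding transcripts and over an exon of 1. Within it miR-7-5p occupies chr9:83969811-83969834 and miR-7-1-3p chr9:83969771-83969792. MIR7-2 lies at chr15:88611825-88611934 on the + strand outside any annotated gene of that strand. MIR7-3 lies at chr19:4770670-4770779 on the + strand, in an intron of the long non-coding gene MIR7-3HG. The passengers of MIR7-1 and MIR7-2 share 18 of 22 bases and their seed, and differ at A10C, G17A, A20U and U21A, counted from the 5′ end with the MIR7-1 base first. Neither table has a row for miR-7-2-3p, and how reads of miR-7-5p were counted over its hairpins is not stated in the sources used here. No other microRNA in the RefSeq table has the seed of miR-7-5p.

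The tables hold the authors' own comparisons, and values of single libraries were not analysed here. Group means in counts per 1000000 reads (CPM) were recovered from the deposited mean and fold change, so a level below has no SD. Errors after ± are standard errors of a log2 change implied by the deposited p-value on a normal reference. No header names the numerator of the fold change. The second-named group was taken as such, the direction in which loss of CYRANO or ZSWIM8 is known to act on miR-7, so the sign of its change is no independent result. The read totals behind the CPM values were recovered as 861000 to 2490000 per library. Those of the groups were 5490000 (sgNT), 5290000 (sgCYRANO), 3810000 (WT) and 7060000 (ZSWIM8 KO). The listed microRNAs make up 99.994% of the total in the first comparison and 99.995% in the second. Depths and shares of reads given here thus refer to counted microRNA reads. The 6 erythroid microRNAs of a K562 marker list were present in every group, summing to 13611 to 16623 CPM, while 5 of 8 markers of other cell types were listed, summing to 79.3 to 141.4 CPM.

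The guide strand was abundant in both control groups. In sgNT cells miR-7-5p had a mean of 6102 CPM and ranked 19 of 837 microRNAs, and in WT cells it had 4616 CPM and ranked 19 of 868. It made up 0.610% and 0.462% of reads there. Its neighbours in sgNT were miR-26b-5p at 6354 CPM and miR-125a-5p at 5226 CPM, and those in WT were miR-26b-5p at 5432 CPM and miR-99b-5p at 4157 CPM. In sgCYRANO cells miR-7-5p reached 34883 CPM and rank 6, between miR-26a-5p at 44504 CPM and miR-126-3p at 33689 CPM. In ZSWIM8 KO cells it reached 23492 CPM and rank 8, between miR-30d-5p at 38428 CPM and miR-10a-5p at 22328 CPM. Its share of reads was then 3.49% and 2.35%. The most abundant microRNA of all groups, miR-21-5p, exceeded miR-7-5p 39.7 times in sgNT and 6.37 times in sgCYRANO, and 54.7 times in WT and 8.26 times in ZSWIM8 KO.

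From high to low the groups ran sgCYRANO, ZSWIM8 KO, sgNT and WT for the guide strand. For the passenger the order was sgNT, WT, sgCYRANO and ZSWIM8 KO. Neighbours in these orders that come from different tables were not tested, because the tables were scaled and fitted apart and give no spread for a single group.

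The passenger was scarce throughout. The mean of miR-7-1-3p was 46.9 CPM in sgNT, 42.5 CPM in sgCYRANO, 44.3 CPM in WT and, lowest of all, 25.7 CPM in ZSWIM8 KO. At the recovered depths these means stand for about 257, 225, 169 and 182 reads per group, against 33500, 185000, 17600 and 166000 reads of miR-7-5p. Its rank was 189, 198, 200 and 232, in the same order of groups. Its nearest neighbours in level were miR-1306-5p (47.8 CPM) and miR-215-5p (46.3 CPM) in sgNT, and let-7d-5p (42.7 CPM) and miR-125a-3p (42.0 CPM) in sgCYRANO. In WT they were miR-628-3p (44.5 CPM) and miR-20a-3p (42.0 CPM), and in ZSWIM8 KO miR-766-3p (25.9 CPM) and miR-760 (25.5 CPM). The 3 groups other than ZSWIM8 KO thus lay within 5 CPM of each other, and ZSWIM8 KO lay below them.

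**Figure D1:**
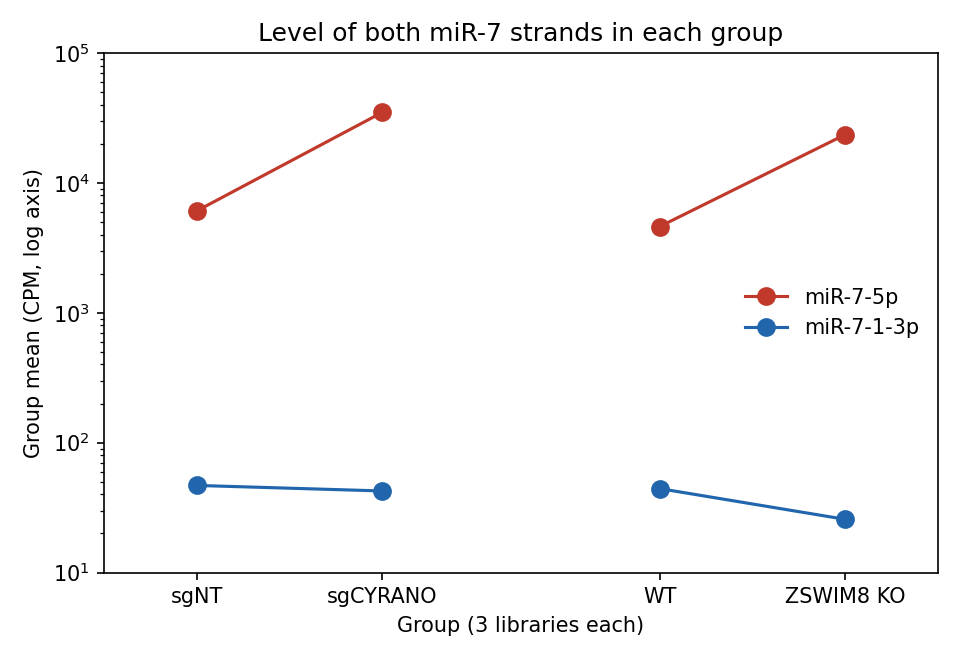
Group means of miR-7-5p (red) and miR-7-1-3p (blue) in CPM on a log axis, with lines joining the groups of each comparison and no error bars because single libraries were not analysed. The guide strand is higher in sgCYRANO and ZSWIM8 KO than in their controls. The passenger lies between 25.7 and 46.9 CPM, lowest in ZSWIM8 KO.

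**Figure D2:**
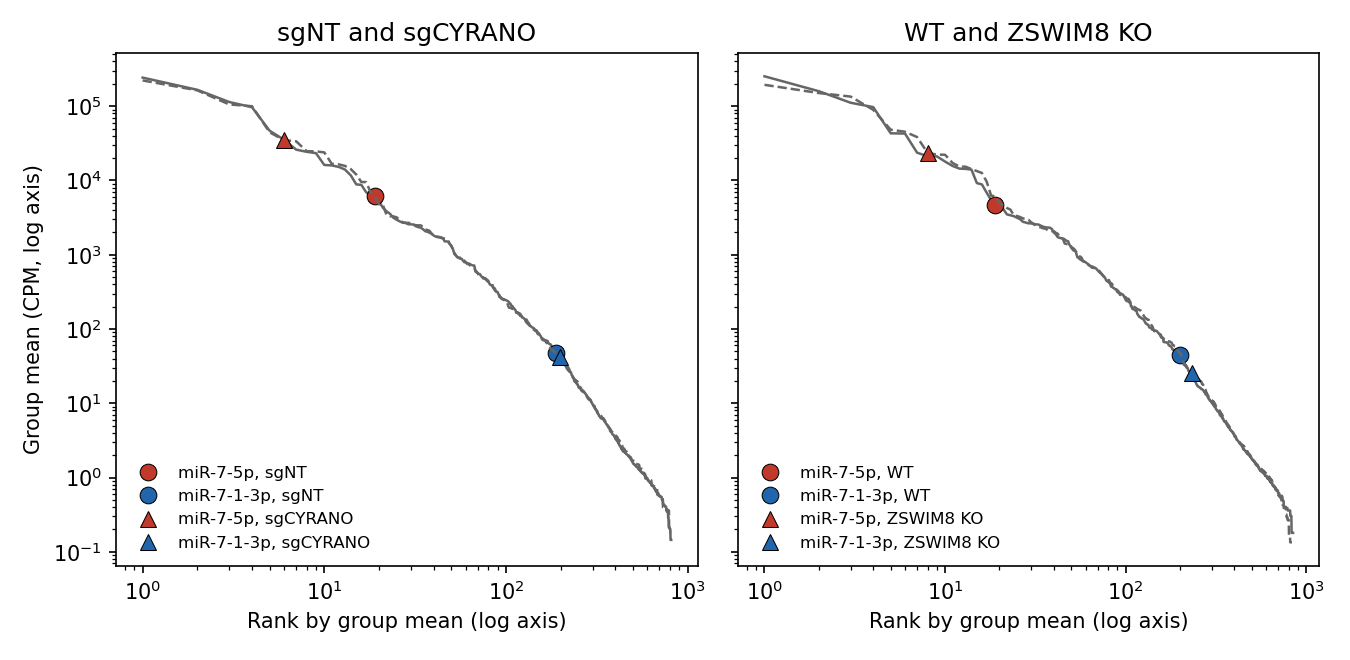
Group mean in CPM against rank among all microRNAs, both on log axes, with solid lines for the control groups (sgNT, WT) and dashed lines for sgCYRANO and ZSWIM8 KO. The guide strand moves from rank 19 to rank 6 or 8, while the passenger lies between ranks 189 and 232, the latter in ZSWIM8 KO.

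With the guide against CYRANO, the guide strand rose and the passenger did not pass the test. In the authors' deposited table the log2 change of miR-7-5p was 2.52 ± 0.09 (edgeR quasi-likelihood test, adjusted p = 5.03e-174), a 5.72-fold rise with a 95% interval of 5.07 to 6.45. That of miR-7-1-3p was -0.14 ± 0.18 (adjusted p = 0.980), with a 95% interval of -0.50 to 0.22. Thus 1 of the 2 strands was called, in a comparison where 0.119% of 837 microRNAs were called, which is miR-7-5p alone. Among 299 microRNAs at 10 CPM or more, miR-7-5p was the 1 with a change of at least 2-fold, and the next largest was that of miR-342-5p, with 0.90 in the authors' deposited table. For the passenger, the interval reaches from a fall of 1.41-fold to a rise of 1.16-fold, so changes within these bounds remain compatible with the data.

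In ZSWIM8 KO the guide strand rose as well, and the passenger again missed the threshold. The authors' deposited table has a log2 change of 2.35 ± 0.14 for miR-7-5p (edgeR quasi-likelihood test, adjusted p = 8.48e-61), or 5.09-fold with a 95% interval of 4.21 to 6.15. For miR-7-1-3p it has -0.78 ± 0.29 with an unadjusted p of 0.00747 and an adjusted p of 0.0672, beside a median of 0.13 over the 304 microRNAs at 10 CPM or more. Its level in ZSWIM8 KO was 1.72-fold below WT, with a 95% interval of 1.16 to 2.56. So again 1 of the 2 strands was called, here against a background of 9.91% of 868 microRNAs. Of these calls 41 were higher (4.72%) and 45 lower (5.18%), a split that turned to 30 and 62 when changes were centred on the median of 0.13, and to 62 and 40 when microRNAs under 10 CPM were left out. Centring shifts every change by the same 0.13, and the change of miR-7-1-3p was then -0.91 (adjusted p = 0.0217). Without the scarce microRNAs its adjusted p was 0.0289.

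The guide strand had the smallest p of all microRNAs in both tables but not the largest change. Scarce microRNAs included, 19 in the first and 52 in the second changed by at least as much in either direction, miR-7-5p among them. In the second, miR-221-3p and miR-222-3p fell by more than miR-7-5p rose, with -4.76 and -4.88 in the authors' deposited table. Of the microRNAs with a mean of 10 CPM or more, 2 rose by more than miR-7-5p in ZSWIM8 KO. The authors' deposited table has 3.69 ± 1.76 for miR-375-3p, an endocrine microRNA (WT 3.70 CPM, ZSWIM8 KO 49.2 CPM), and 3.01 ± 1.63 for miR-543 (2.96 and 24.7 CPM), neither of which passed (edgeR adjusted p = 0.201 and 0.297). As miR-375-3p is on the list of markers of other cell types, the summed level of that list went from 100.1 to 141.4 CPM beside the rise of miR-7-5p, and its part in the result was not tested. In sgCYRANO, where miR-7-5p rose too, that sum was 83.6 CPM against 79.3 CPM in sgNT. In absolute terms miR-7-5p gained 28781 CPM in sgCYRANO and 18876 CPM in ZSWIM8 KO. Since CPM values share 1 total, that gain alone lowers each other microRNA by 0.04 and 0.03 on the log2 scale. With this taken off, miR-7-1-3p stood at -0.10 and -0.75.

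The test of the difference between the comparisons called neither strand. The guide strand's log2 change was 0.17 lower with ZSWIM8 KO than with the CYRANO guide, with a 95% interval of the difference, ZSWIM8 KO minus sgCYRANO, of -0.49 to 0.16 (normal test, adjusted p = 0.538 over 294 microRNAs at 10 CPM or more in both tables). As a ratio of folds that is 0.890, with an interval of 0.711 to 1.11, so ratios within these bounds remain compatible with the data. For miR-7-1-3p the difference was -0.64 ± 0.34, with an interval of -1.31 to 0.03 (adjusted p = 0.183). Of the 294 microRNAs, 19.7% were called. Both comparisons differ also in their control, since sgNT cells carry a guide RNA and WT cells none.

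**Figure D3:**
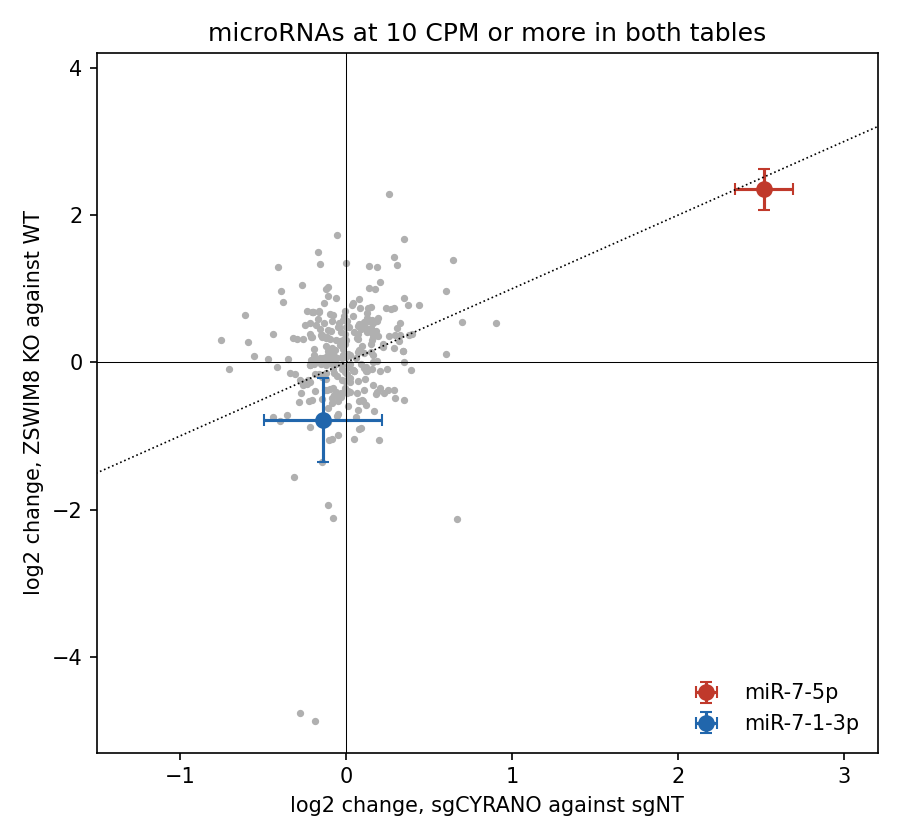
Log2 change in sgCYRANO against sgNT (horizontal) and in ZSWIM8 KO against WT (vertical) for the 294 microRNAs at 10 CPM or more in both tables, with 95% intervals for the miR-7 strands and a dotted line of equal change. miR-7-5p, at 2.52 and 2.35, lies apart from the others and near the dotted line, and miR-7-1-3p, at -0.14 and -0.78, lies in the lower part of the cloud.

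Both strands are cut from the same hairpin, and they were therefore set against each other. In sgNT there were 130.2 reads of miR-7-5p to each of miR-7-1-3p, and in sgCYRANO 820.9. In WT there were 104.2 and in ZSWIM8 KO 913.4. The passenger made up 0.762% of both strands in sgNT and 0.122% in sgCYRANO, and 0.950% in WT and 0.109% in ZSWIM8 KO. As miR-7-5p can come from other hairpins too, these are ratios of measured strands, not of the arms of MIR7-1 alone.

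On the log2 scale the guide strand changed by 2.66 ± 0.20 more than the passenger in sgCYRANO (normal test, adjusted p = 5.12e-37 over 201 hairpins), a 6.30-fold shift of the ratio. In ZSWIM8 KO it changed by 3.13 ± 0.32 more (normal test, adjusted p = 8.54e-20 over 209 hairpins), an 8.75-fold shift. Arm differences were called for 0.498% of hairpins in the first comparison and 5.26% in the second. With both arms at 10 CPM or more, 70 and 71 hairpins remained, of which 2.86% and 18.3% were called, and miR-7 had the largest arm difference of each set. Over all 201 and 209 hairpins, scarce arms included, 7 and 5 had an arm difference of at least that size, miR-7 among them. Over the 70 and 71 hairpins with both arms at 10 CPM or more, the median was 0.02 in sgCYRANO and 0.14 in ZSWIM8 KO. Their middle 50% lay between -0.10 and 0.22 and between -0.21 and 0.41. Over all 201 and 209 hairpins the medians were 0.04 and 0.10. The middle 50% then lay between -0.28 and 0.44 and between -0.48 and 0.53.

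The next largest shifts toward the 5p arm were smaller, with p-values here adjusted over the 70 and 71 hairpins. In sgCYRANO miR-342, a lymphoid microRNA, shifted by 1.04 ± 0.30 (normal test, adjusted p = 0.0234) and miR-4677 by 0.79 ± 0.40 (adjusted p = 0.606). In ZSWIM8 KO the hairpin of miR-181a-2 shifted by 1.43 ± 0.38 (normal test, adjusted p = 0.00140) and that of miR-671 by 1.12 ± 0.27 (adjusted p = 0.000425). In the other direction, the largest shifts in ZSWIM8 KO were those of miR-425 at -0.88 ± 0.35 (adjusted p = 0.0584), miR-92a-1 at -0.81 ± 0.14 (adjusted p = 6.89e-07) and miR-25 at -0.75 ± 0.19 (adjusted p = 0.000473). Those in sgCYRANO, let-7d at -0.54, miR-30e at -0.48 and miR-26a-2 at -0.36, did not pass, with adjusted p-values of 0.806, 0.806 and 0.606.

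**Figure D4:**
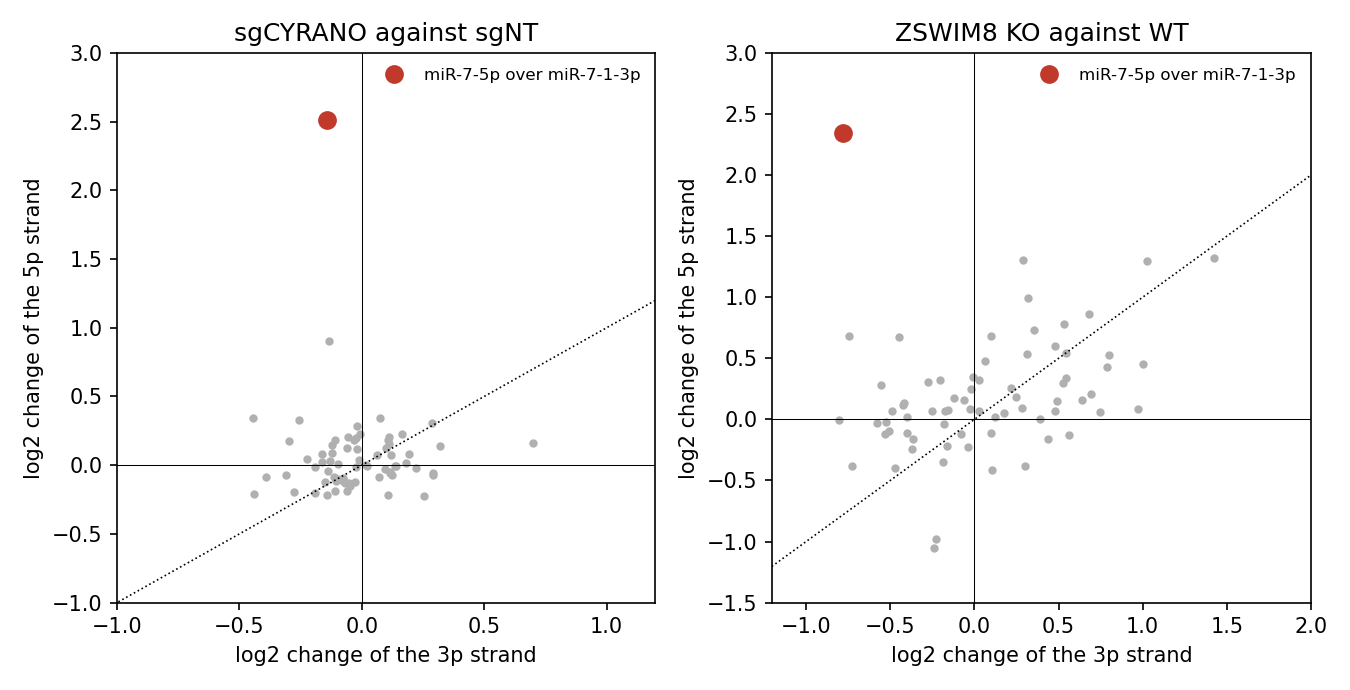
Log2 change of the 5p strand against that of the 3p strand for hairpins with both arms at 10 CPM or more (70 left, 71 right), with a dotted line of equal change and different axis ranges in the panels. The miR-7 pair (red) lies 2.66 and 3.13 above the dotted line, farther than any other hairpin drawn.

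The lower level of the passenger in ZSWIM8 KO was set beside other scarce strands. Scarcer arms were defined, after the data were seen, as the less abundant arm of each hairpin with both arms at 10 CPM or more. In ZSWIM8 KO their median log2 change was 0.03, with 8 of 71 called higher and 8 lower (11.3% each), and 4 of them, miR-7-1-3p included, lay at or below -0.78. The more abundant arms had a median of 0.13, with 12 of 70 higher (17.1%) and 5 lower (7.14%). All 304 microRNAs at 10 CPM or more had a median of 0.13, with 38 higher (12.5%) and 32 lower (10.5%), so the shares called among scarcer arms lay near those of all. Among the 20 microRNAs nearest to miR-7-1-3p in level, at 28.3 to 40.6 CPM, changes ran from -1.36 to 1.35 with a median of -0.07, 3 lay at or below the passenger's change and 2 were called, against 70 of the 304 (23.0%). In sgCYRANO the corresponding 20 ran from -0.31 to 0.67 with 0 called by the deposited test, where 49 of all 837 microRNAs had an unadjusted p under 0.05. The median error of these neighbours was 0.18 and 0.29, as for the passenger itself.

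The microRNAs most alike to each strand were sought by the distance between their pairs of log2 changes over both comparisons, among the 294. None came near miR-7-5p: the nearest was miR-522-3p, 2.10 away, followed by miR-516a-5p (2.26), miR-1301-3p (2.27), miR-372-3p (2.36) and miR-9-3p (2.41). None of these 5 passed in sgCYRANO. In ZSWIM8 KO the authors' deposited table calls miR-1301-3p at 1.67 ± 0.28 and, from a neural microRNA, miR-9-3p at 1.43 ± 0.26 (edgeR adjusted p = 1.33e-07 and 2.04e-06). In contrast miR-7-1-3p had close company. The nearest was miR-32-3p at a distance of 0.04, then miR-21-3p (0.10), let-7b-5p (0.12), miR-1908-5p (0.13) and miR-642a-5p (0.16).

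Of these neighbours of the passenger 4 passed in ZSWIM8 KO, where it did not, and those 4 were more abundant than it in every group, at 67.9 to 269.5 CPM. Of all 304 microRNAs at 10 CPM or more 23.0% passed there. The 5 neighbours were picked for changes like those of the passenger, so nothing is read from their count. The authors' deposited table for ZSWIM8 KO has falls of miR-32-3p by 0.80 ± 0.21, of miR-21-3p by 0.73 ± 0.17, of miR-1908-5p by 0.88 ± 0.24 and of miR-642a-5p by 0.62 ± 0.20 (edgeR adjusted p = 0.00322, 0.000405, 0.00389 and 0.0252). The level of let-7b-5p was 48.3 CPM in WT against 29.7 CPM without ZSWIM8, and its change of -0.70 ± 0.28 in the authors' deposited table missed the threshold (edgeR adjusted p = 0.0995). In that table for sgCYRANO the 5 lay between -0.22 and -0.05 and did not pass. Likeness over 2 comparisons is a description.

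CYRANO and miR-7 belong to a circuit with the circular RNA Cdr1as, which binds miR-7 and is itself cut under the direction of miR-671-5p. In sgCYRANO neither miR-671 strand passed, and the authors' deposited table gives 0.13 ± 0.18 for miR-671-5p and -0.06 ± 0.12 for miR-671-3p. In ZSWIM8 KO miR-671-5p rose from 61.1 to 97.7 CPM, 0.68 ± 0.22 in the authors' deposited table (edgeR adjusted p = 0.0269), and miR-671-3p fell from 308.0 to 226.2 CPM, by 0.45 ± 0.15 (adjusted p = 0.0430). Both calls lie near the threshold. Of the 3 listed strands of the circuit, miR-7-5p itself included, 1 rose in sgCYRANO, and 2 rose and 1 fell in ZSWIM8 KO. The rise in sgCYRANO is that of miR-7-5p. Over all microRNAs 0.119% rose in sgCYRANO, again miR-7-5p alone, and 4.72% rose and 5.18% fell in ZSWIM8 KO. The medians, which are the values of miR-671-5p, were 0.13 and 0.68, beside 0.01 and 0.08 over all microRNAs. As miR-7-5p is counted in, nothing further is read from these counts.

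MicroRNAs known to be subject to target-directed decay were followed from a list of 10, of which 7 were in both tables. The list holds miR-7-5p itself, which is included in the counts and medians here. In sgCYRANO miR-7-5p rose and 6 did not pass, with a median of -0.16 beside 0.01 over all. In ZSWIM8 KO 2 rose, 2 fell and 3 did not pass, with a median of 0.45 beside 0.08, where 4.72% of all microRNAs rose and 5.18% fell. The second rise was that of miR-503-5p, 0.82 ± 0.23 in the authors' deposited table (52.8 to 93.4 CPM, edgeR adjusted p = 0.0052), against 2.35 for the guide strand. Opposite in sign to miR-7-5p, miR-222-3p and miR-221-3p fell, to -4.88 ± 0.58 and -4.76 ± 0.48 in the authors' deposited table. Those that did not pass were miR-29b-3p at 0.45 ± 0.34, miR-424-5p at 0.31 ± 0.25 and, at under 2 CPM, miR-335-3p at 1.08 ± 0.95 in that table. Of the microRNAs that viral RNAs direct to decay, miR-17-5p and miR-20a-5p were listed, at 0.07 ± 0.08 and -0.03 ± 0.08 in sgCYRANO and 0.13 ± 0.08 and -0.09 ± 0.08 in ZSWIM8 KO, as given by the authors' deposited tables, and neither passed.

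Errors computed from the deposited F were, for the miR-7 strands, 0.957 to 1.004 times the running median of such errors at like abundance. For miR-7-5p the errors quoted after ±, which come from p, were not compared in this way. The error of its difference between the comparisons was 0.17 from p and 0.12 from F, so the interval given above is the wider. With neither error was that difference called (normal test, adjusted p = 0.538 and 0.329). For miR-7-1-3p the deposited F and p imply 3348 and 164.1 degrees of freedom, far above the 4 that 6 libraries in 2 groups give. The spread used for miR-7-1-3p was thus largely taken from other microRNAs. Such degrees of freedom were computed for the miR-7 strands alone. Read with 4 denominator degrees of freedom, F still called miR-7-5p in both comparisons (adjusted p = 0.00597 and 0.00878), and gave 0.443 for miR-7-1-3p in ZSWIM8 KO. Counting error alone, from the approximate read numbers, would give miR-7-1-3p a 95% interval of -0.40 to 0.13 in sgCYRANO and -1.09 to -0.47 in ZSWIM8 KO (exact Clopper-Pearson on the share of reads), which leaves out all spread between libraries.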

How the data were processed

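MicroRNAs were measured in 12 small-RNA libraries of K562 cells. Per the submitters' processing notes, the authors used STAR, featureCounts and edgeR, with FastQC 0.11.2, bcl2fastq and the build hg19, named without roles or order. For reads that match several hairpins, the sources used here give no counting rule. Per the file headers, each deposited table gives a log2 fold change, a mean log2 CPM, an F (treated as a score), a p-value and an adjusted p-value from the authors. The design allowed for counts per library, and the tables hold comparisons, so the deposited tests are the main result.

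Group means were obtained by inverting the deposited mean log2 CPM, with a prior of 2, and the log2 change, with a prior of 0.125, at the library total for which the rows sum to it, 99.994% and 99.995% of 1000000. The recovered sums over 3 libraries fall on steps of CPM values rounded to 3 decimals, from which library totals were read. All 146, 131, 160 and 140 sums up to 2 CPM were matched within 0.0004 CPM plus 0.0005 per read. Totals cannot be tied to replicate numbers. Benjamini-Hochberg adjustment over all rows returned the deposited adjusted p-values to within 1.09e-06, so tests were made over 837 and 868 rows.

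Standard errors are the log2 change over the normal deviate of p, and differences between arms or comparisons are divided by the root of the summed squared errors, two-sided. Arms share libraries, and their errors were treated as independent. Scripts used Python 3.11.15 and SciPy 1.17.1 and were tested on simulated data. Of the microRNA names 762 and 786 matched RefSeq. Named microRNAs are both strands, neighbours in level, the 5 nearest in pattern, the 3 largest arm shifts each way and fixed lists, beside miR-375-3p and miR-543, chosen after their values were seen. Members and lists were chosen with earlier results of these data known.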

Additional observations from a re-analysis of the deposited data

Results flagged for a closer look

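Of 59 microRNAs tested that are named above, belong to a list used above or are a strand of a hairpin named above, 17 (28.8%) changed differently in ZSWIM8 KO against WT than in sgCYRANO against sgNT, by the normal test of the difference of log2 changes over 294 microRNAs, of which 58 (19.7%) did, while neither miR-7 strand did. Many of the 59 were named for their changes or levels in these tables, so nothing is read from that share. Values are ZSWIM8 KO minus sgCYRANO on the log2 scale. The difference was lower by far for miR-221-3p (-4.49) and miR-222-3p (-4.69). Lower values were also found for miR-92a-1-5p (-1.25), miR-215-5p (-1.24), miR-25-5p (-0.93), miR-26a-2-3p (-0.78), miR-32-3p (-0.69), miR-21-3p (-0.68) and miR-25-3p (-0.34). Higher values were found for miR-425-3p (1.36), miR-1301-3p (1.32), miR-503-5p (1.2), miR-9-3p (1.14), miR-342-3p (0.93), miR-181a-5p (0.89), miR-4677-3p (0.83) and miR-30d-5p (0.78). Adjusted p-values ran from 1.29e-16 for miR-221-3p to 0.0484 for miR-4677-3p. Among the microRNAs nearest to miR-7-1-3p in pattern, miR-32-3p and miR-21-3p passed this test, with smaller errors (0.26 and 0.21) than that of the passenger (0.34).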

How the results depend on the processing

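The rise of miR-7-5p and its excess over miR-7-1-3p kept their call in all 14 alternatives run on them. Values lay between 2.22 and 3.13, with adjusted p-values of at most 0.00878. Most of these settings leave the log2 value unchanged by construction and the rest move it little, so they do not test its direction. For miR-7-1-3p in ZSWIM8 KO the call depends on the setting: it passed without microRNAs under 10 CPM (-0.78, adjusted p = 0.0289), where fewer microRNAs are adjusted for, and after centring on the median (-0.91, adjusted p = 0.0217). With F on 4 denominator degrees of freedom the calls in ZSWIM8 KO fell from 86 to 3. The other alternatives, including 1 added after seeing the data that takes off the dilution by miR-7-5p, changed no call of the strands. No paired analysis was possible because the tables hold no values per library, and leaving out replicates was not run for the same reason. About 169 to 257 reads per group stand behind the passenger, which limits what can be resolved for it. If the fold changes were read the other way, every direction and both means of a comparison would change places.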
